A study of Bos taurus with 16 samples.

Results

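Blood coagulation and fibrinolysis are opposed chains of proteases. Tissue factor, a membrane receptor, starts coagulation in complex with factor VII, and this complex activates factor X. Active factor X leads to thrombin and fibrin, while von Willebrand factor tethers platelets to the vessel wall. Thrombomodulin turns thrombin towards activating protein C, and protein S is the cofactor of activated protein C in anticoagulation. The plasminogen activators open the breakdown of fibrin by plasmin. In the brain, tissue factor is abundant in astrocytes and around vessels, thrombomodulin and von Willebrand factor are typical of vessel endothelium, and the tissue-type plasminogen activator also acts on neurons and glia outside the blood.

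The transcripts of 8 such genes were followed in the prefrontal cortex (PFC) of 16 bulls: F3, F10, VWF, THBD, PROS1, TFPI2, PLAT and PLAU. They were taken, with results of these animals known, from the study's list of genes higher in the Lidia than in the Wagyu breed. All were thus chosen for being higher in Lidia in these same animals. Each symbol was paired with the deposited gene of identical chromosome, start and end, which gave 8 genes of the 27607 in the files, 1162 of which have a symbol here. The difference between the breeds is therefore given below as a description and without a test, while the difference between the Lidia farms and the covariation of the genes within a breed were not used in the choice and are tested.

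The animals were non-castrated males, 8 of the Lidia breed, selected for aggressive behaviour and sampled after the bullfight, and 8 of the Wagyu breed, selected for meat quality and docility and sampled at a slaughterhouse. Of the Lidia bulls, 4 came from the farm La Quinta and 4 from Montealto, numbered 1 to 4 within each farm in the order of their animal numbers, and all Wagyu bulls (1, 3, 4, 5, 6, 7, 9 and 12) came from Nuestro Buey. All were 3 years old except Montealto 4, which was 4. Breed, farm, feeding, handling and the place of death changed together and cannot be told apart, and each animal gave 1 library of stranded mRNA read in pairs of 100 bases.

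Values are FPKM, fragments per kilobase of transcript scaled to the mapped fragments, summed over the annotated transcripts of a gene and divided by a median-of-ratios factor for each animal. The fragments behind the FPKM, estimated from the deposited coverage, were between 7.67 M and 37.0 M per animal (M for mega). The deposited FPKM of La Quinta 4 and Wagyu 5 were inflated against the other 14 animals, with factors of 1.78 and 2.21 against 0.617 to 1.13, and these animals also had the fewest estimated fragments, 13.7 M and 7.67 M. Markers of neurons were present in every animal, the summed FPKM of the 3 named neuron markers being 186 to 277 in Lidia and 228 to 360 in Wagyu. Markers of the meninges and of vessels were present as well. The 15 named markers of meningeal fibroblasts summed to 31.2 to 186 in Lidia, with a median of 73.4, and to 9.16 to 57.0 in Wagyu, with a median of 14.9, and the 7 of endothelium to 36.6 to 127 and 18.9 to 44.3. The named markers were 3 of 12 for neurons, 15 of 21 for meningeal fibroblasts and 7 of 20 for endothelium. Names exist only for entries of the study's list of genes that differ between these breeds. The markers were thus chosen on the same contrast, and nothing is read from breed differences in their sums. In such bulk tissue a higher share of cells of a type and more RNA per cell cannot be told apart.

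All 8 genes had higher mean values in Lidia than in Wagyu, by 0.43 to 1.30 on the log2(FPKM + 0.1) scale, with a median of 0.77 against -0.01 over all 16577 genes tested. The added 0.1 understates the change of the genes with the lowest values. A gene was called at a Benjamini-Hochberg adjusted p of at most 0.05 in limma's test over all genes and an absolute log2 difference of at least 0.1. By this rule 3 of the 8 were called, F3, PROS1 and TFPI2, where 4.99% of all genes were called and 3.33% were called higher in Lidia. Since the genes were chosen on this contrast, nothing is read from that count, which was 1 to 5 when single animals were left out and 0 on the FPKM as deposited; there limma called 0 of 16614 genes, with 1022 at an unadjusted p under 0.05, 4 of them among the 8. None of the 8 had every Lidia value above every Wagyu value, a separation in either direction that 0.706% of all genes showed.

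**Figure D1:**
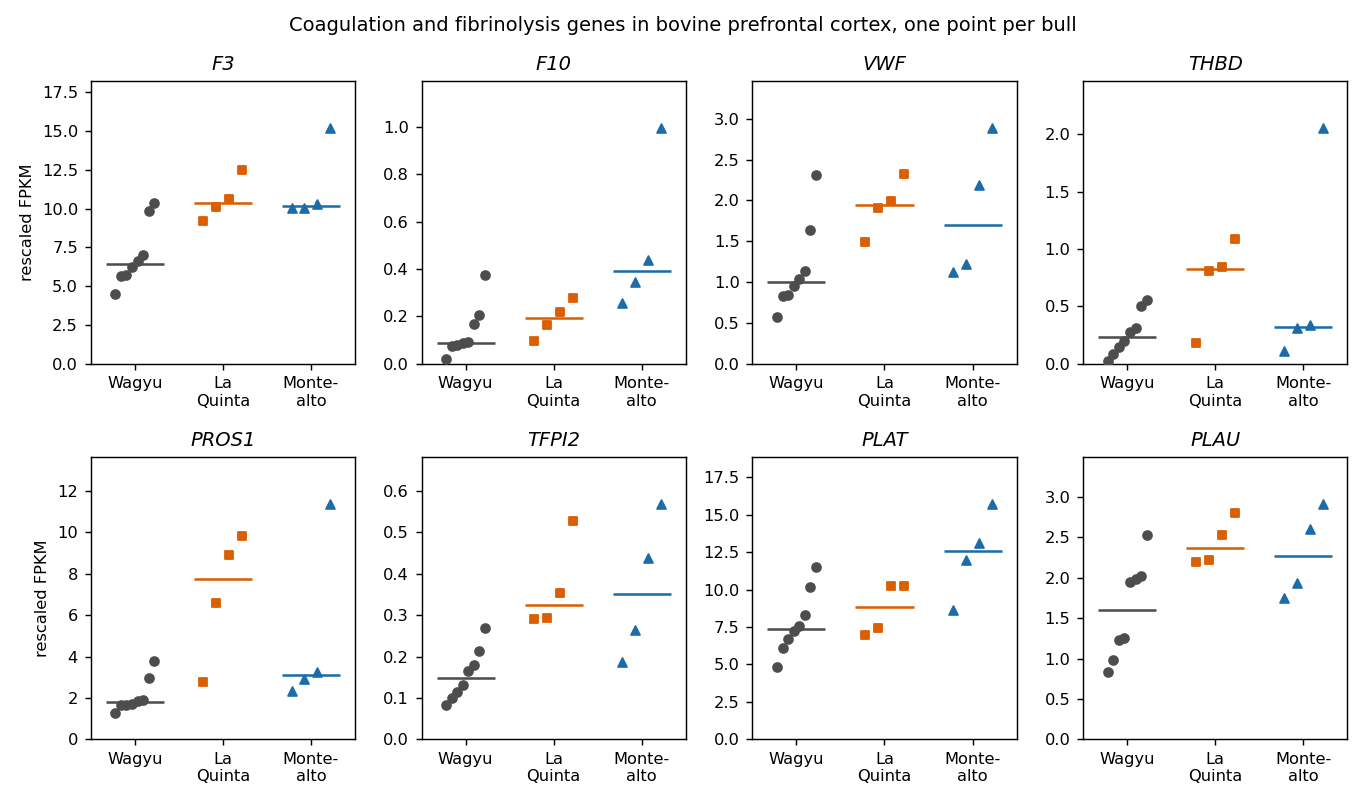
Rescaled FPKM (vertical axis, linear, starting at 0) of the 8 genes in each of 16 bulls, by group: 8 Wagyu, 4 Lidia from La Quinta and 4 Lidia from Montealto; points are animals and lines are group medians. The medians of both Lidia farms lie above the Wagyu median in every panel, and the ranges of Lidia and Wagyu overlap in every panel.

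Of the genes that start and carry coagulation, F3 (ENSBTAG00000007101, chromosome 3, 48954585 to 48965477, plus strand, ARS-UCD 1.2) encodes tissue factor. Its level was 9.23, 10.1, 10.6 and 12.5 FPKM in the La Quinta bulls and 10.03, 10.04, 10.3 and 15.2 in the Montealto bulls. The Wagyu bulls ran from 4.47 to 10.4 FPKM with a median of 6.41. Every Lidia bull lay above the Wagyu median and 6 of 8 Wagyu bulls lay below every Lidia bull, the exceptions being Wagyu 4 and 5. The log2 difference was 0.68 (SE 0.16), and it was 0.64 in La Quinta and 0.73 in Montealto, the closest agreement in size between the farms after TFPI2. Among the 8 genes F3 varied little within Lidia, with a coefficient of variation of 17.6%.

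F10 (ENSBTAG00000016385, chromosome 12, 86499761 to 86514706, plus strand) encodes factor X, a vitamin K-dependent protease precursor made mainly by the liver. It was the lowest of the 8 genes by median in both breeds. The La Quinta bulls had 0.0977, 0.165, 0.218 and 0.279 FPKM and the Montealto bulls 0.258, 0.346, 0.438 and 0.994, the last being Montealto 2. The Wagyu bulls ran from 0.0207 to 0.374 FPKM with a median of 0.0883. Montealto 2 and 4 were the 2 Lidia bulls above every Wagyu bull, and Wagyu 1 lay above 6 of the 8 Lidia bulls. The log2 difference was 0.86 (SE 0.32), and it was 0.23 with 1 and 1.34 with 0.01 in place of 0.1 added before the logarithm. The reads behind it are few: an estimated 1.08 to 23.3 fragments for each Wagyu bull and 8.66 to 37.9 for each Lidia bull, and in Wagyu 5 the interval that Cufflinks gives begins at 0.

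VWF (ENSBTAG00000012265, chromosome 5, 104221024 to 104345680, plus strand) encodes von Willebrand factor, the multimeric glycoprotein stored by endothelial cells and platelets. Its level was 1.49, 1.91, 1.99 and 2.32 FPKM in La Quinta and 1.13, 1.22, 2.18 and 2.89 in Montealto. In Wagyu it ran from 0.567 to 2.31 FPKM with a median of 0.995. Wagyu 3, the highest Wagyu bull, exceeded all Lidia bulls but La Quinta 1 and Montealto 2. The log2 difference was 0.70 (SE 0.24), with 0.77 in La Quinta and 0.64 in Montealto.

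Of the anticoagulant genes, THBD (ENSBTAG00000048591, chromosome 13, 41849505 to 41854998, minus strand) encodes thrombomodulin, the endothelial receptor that redirects thrombin to protein C. La Quinta bulls had 0.184 (bull 1), 0.811 (bull 4), 0.844 (bull 2) and 1.09 (bull 3) FPKM, and Montealto bulls had 0.107 (bull 2), 0.309 (bull 4), 0.339 (bull 3) and 2.06 (bull 1). The Wagyu bulls ran from 0.0218 to 0.552 FPKM with a median of 0.235. The Lidia values fell into 4 that exceeded every Wagyu bull and 4 that lay within the Wagyu range, with none between 0.339 and 0.811. The log2 difference, 0.98 with an SE of 0.46, had the largest SE of the 8, and it was 0.38 with 1 and 1.32 with 0.01 added. An estimated 1.10 to 53.9 fragments stood behind each Wagyu value and 3.30 to 193 behind each Lidia value.

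PROS1 (ENSBTAG00000023652, chromosome 1, 38203313 to 38267163, minus strand) encodes protein S, the vitamin K-dependent cofactor of activated protein C and a ligand of the TYRO3, AXL and MERTK receptors. Its level in La Quinta was 2.76 (bull 1), 6.59 (bull 2), 8.92 (bull 4) and 9.84 (bull 3) FPKM, and in Montealto 2.34 (bull 2), 2.93 (bull 3), 3.26 (bull 4) and 11.4 (bull 1). In Wagyu it ran from 1.28 to 3.79 FPKM with a median of 1.80. The same 4 Lidia bulls that were high for THBD, namely La Quinta 2, 3 and 4 and Montealto 1, were above every Wagyu bull for PROS1, and none of the 8 lay between 3.26 and 6.59 FPKM. The log2 difference of PROS1, 1.30 (SE 0.34), was the largest of the 8 with 0.1 added, while with 0.01 added it was 1.33 and that of F10 1.34.

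TFPI2 (ENSBTAG00000015844, chromosome 4, 11204075 to 11208760, minus strand) encodes a Kunitz-type protease inhibitor that is deposited in the extracellular matrix and inhibits plasmin among other proteases. It was at 0.291, 0.294, 0.353 and 0.527 FPKM in La Quinta and at 0.188, 0.264, 0.438 and 0.569 in Montealto. In Wagyu it ran from 0.0839 to 0.269 FPKM with a median of 0.148. It was the gene with the least overlap: 6 of 8 Lidia bulls exceeded every Wagyu bull, and 6 of 8 Wagyu bulls lay below every Lidia bull. The log2 difference was 0.84 (SE 0.20), 0.87 in La Quinta and 0.81 in Montealto, and it rested on an estimated 2.87 to 17.8 fragments for each Wagyu bull and 9.20 to 36.2 for each Lidia bull. With 1 in place of 0.1 added before the logarithm, it was 0.23, and with 0.01 it was 1.17.

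Of the genes that open fibrinolysis, PLAT (ENSBTAG00000001244, chromosome 27, 37053715 to 37077724, minus strand) encodes the tissue-type plasminogen activator. It was the highest of the 8 genes by median in both breeds. Its level was 6.95, 7.46, 10.2 and 10.3 FPKM in La Quinta and 8.63, 11.98, 13.1 and 15.7 in Montealto. The Wagyu bulls ran from 4.86 to 11.5 FPKM with a median of 7.4. All 4 La Quinta bulls lay within the Wagyu range and 3 of 4 Montealto bulls lay above it. The log2 difference, 0.43 (SE 0.19), was the smallest of the 8, and it was 0.18 in La Quinta and 0.67 in Montealto.

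PLAU (ENSBTAG00000005947, chromosome 28, 29791112 to 29799836, plus strand) encodes the urokinase-type plasminogen activator, a secreted protease that works at the cell surface. Its level was 2.19, 2.21, 2.52 and 2.79 FPKM in La Quinta and 1.75, 1.94, 2.60 and 2.91 in Montealto. In Wagyu it ran from 0.83 to 2.52 FPKM with a median of 1.60. La Quinta 1, Montealto 1 and Montealto 3 were the 3 bulls above the highest Wagyu bull, Wagyu 3, and every Lidia bull was above the Wagyu median. The log2 difference was 0.61 (SE 0.20), and within Lidia PLAU had the smallest coefficient of variation of the 8 genes, 17.4%, against 37.7% in Wagyu.

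FPKM is scaled to transcript length, so the levels of the 8 genes can be set side by side. By their medians the order was the same in both breeds: PLAT, F3, PROS1, PLAU, VWF, THBD, TFPI2 and F10. PLAT and F3 did not differ beyond their spread, since PLAT exceeded F3 in 3 of 8 Lidia and 5 of 8 Wagyu bulls. F3 exceeded PROS1, and VWF exceeded THBD, in all 8 animals of each breed, and in Wagyu the ranges of both pairs were separate. THBD exceeded TFPI2 in 6 Lidia and 5 Wagyu bulls and TFPI2 exceeded F10 in 5 and 6, so that the lowest 3 genes were not ordered within animals.

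F3, F10, THBD, TFPI2 and PLAT each have a single annotated transcript in the files. Of 2 VWF transcripts, ENSBTAT00000069613 held at least 93.2% of the FPKM in every animal, and of 4 PLAU transcripts ENSBTAT00000007806 held at least 71.9%. PROS1 has 4 annotated transcripts and its makeup differed between animals. ENSBTAT00000032377 held a median of 80.2% in Lidia and 86.3% in Wagyu, but 10.2% in Wagyu 1, where ENSBTAT00000067662 held 69.5%, and 42.0% in Montealto 2, where ENSBTAT00000070289 held 46.9%. Cufflinks divides shared reads among transcripts by estimation, and both of these animals had low PROS1, at 1.64 and 2.34 FPKM. In Montealto 1, which had the highest PROS1, the leading transcript held 57.8% and ENSBTAT00000078980 39.1%.

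**Figure D2:**
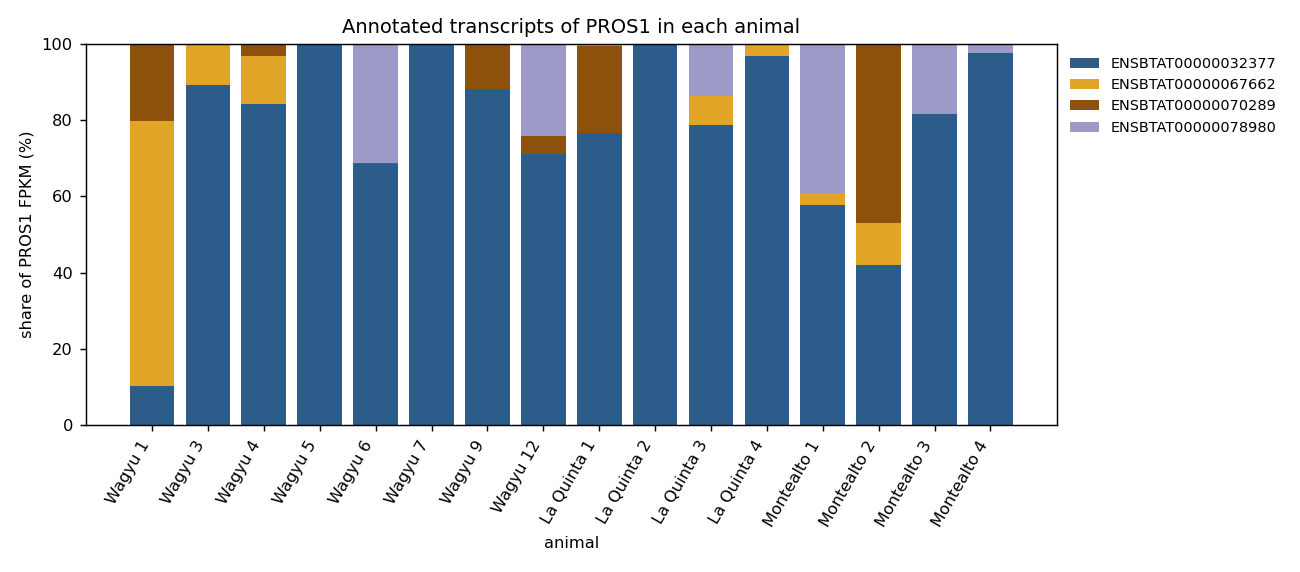
Share of the PROS1 FPKM in percent (vertical axis, stacked to 100) held by each of 4 annotated transcripts in each of 16 bulls. ENSBTAT00000032377 leads in every animal except Wagyu 1 and Montealto 2, where it holds 10.2% and 42.0%.

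Each Lidia farm was also set against the Wagyu bulls, which both comparisons share. All 8 genes were higher in each farm, with a median log2 difference of 0.71 in La Quinta and 0.74 in Montealto. Limma called 0 of the 8 in La Quinta, with 5 at an unadjusted p under 0.05, where 1.13% of all genes were called. In Montealto it called 0, with 6 at an unadjusted p under 0.05, where 1.77% of all genes were called. Over all 16577 genes, 2272 had an unadjusted p under 0.05 in La Quinta and 3480 in Montealto. These comparisons reuse the animals on which the 8 genes were chosen, so nothing is read from the counts. The farms ordered the genes differently: the largest differences were PROS1 at 1.62 (SE 0.40) and THBD at 1.21 (SE 0.58) in La Quinta, and F10 at 1.34 (SE 0.35) and PROS1 at 0.97 (SE 0.40) in Montealto. The smallest were PLAT in La Quinta, at 0.18 (SE 0.21), and PLAU in Montealto, at 0.56 (SE 0.25).

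**Figure D3:**
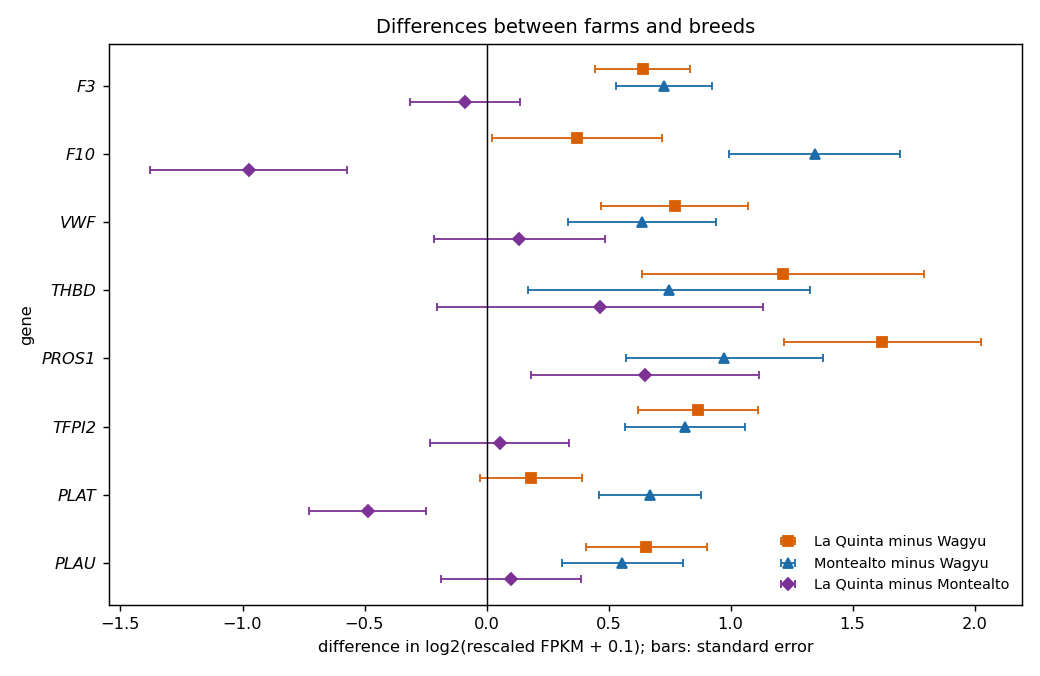
Differences in log2(rescaled FPKM + 0.1) (horizontal axis) for each gene (vertical axis) between each Lidia farm and Wagyu and between the farms; points are limma estimates and bars are standard errors. All 16 differences from Wagyu lie to the right of 0, and the farms stand furthest apart for F10, at -0.97.

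The comparison of the farms, which the choice of the genes had not used, asked whether the 8 genes differ among Lidia bulls. None was called by limma between La Quinta and Montealto: 0 of 8, with 1 at an unadjusted p under 0.05, where 0.0905% of all genes were called, 15 of 16577. At an unadjusted p under 0.05 there were 977 of all genes. F10 was lower in La Quinta by -0.97 (SE 0.40), with an unadjusted p of 0.0285 and an adjusted p of 0.805 in limma. No gene of the 8 had all 4 values of a farm above all 4 of the other, a separation that 3.6% of all genes showed. In F10 and in PLAT 3 of 4 Montealto bulls were above every La Quinta bull. An exact two-sided permutation test of 4 against 4 bulls, whose smallest possible p is 0.0286, gave 0.0571 for F10 and 0.114 for PLAT.

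PLAT was lower in La Quinta by -0.49 (SE 0.24), with an adjusted p of 0.828 in limma. PROS1 and THBD were higher there by 0.65 (SE 0.47) and 0.47 (SE 0.67), with adjusted p of 0.838 and 0.895 in limma. When 1 Lidia bull was left out, the difference of PROS1 ran from 0.40 without Montealto 2 to 1.14 without Montealto 1, and that of THBD from 0.011 to 1.14 without the same bulls. In both, 3 high values stood in La Quinta and 1 in Montealto, and Montealto 1 was the highest of all 16 animals. F3, VWF, PLAU and TFPI2 differed between the farms by -0.09, 0.13, 0.10 and 0.05, each less than its SE. The standard errors of the 8 differences ran from 0.23 to 0.67, so that differences of such sizes could not be detected with 4 bulls a farm. On the FPKM as deposited the median of all genes moved to 0.32 in this comparison, and the difference was -0.70 for F10 and 0.99 for PROS1, still with 0 of 8 called and 0 at an unadjusted p under 0.05. Beside these values, TTR, the choroid plexus marker with a name here, was at 7.51 to 18.8 FPKM in Montealto and 1.05 to 1.78 in La Quinta, without overlap, and oligodendrocyte markers summed to 123 to 277 in Montealto and 86.4 to 129 in La Quinta. Their part in the differences was not tested.

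Covariation within a breed was measured on log2(FPKM + 0.1) for the 28 pairs of the 8 genes in each breed, 56 pairs in all. Pearson's r was positive in 19 pairs in Lidia and 21 in Wagyu, with medians of 0.21 and 0.43. By Pearson's r, 2 of the 56 pairs passed a Benjamini-Hochberg adjusted p of 0.05 in the exact permutation test. Both involve PROS1: THBD with PROS1 in Lidia and VWF with PROS1 in Wagyu. By the Spearman coefficient no pair passed in the exact permutation test. The lowest adjusted p there was 0.0625, for THBD with PROS1 in Lidia and for VWF with THBD in Wagyu.

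For THBD and PROS1 in Lidia the 8 bulls fell into separate sets, La Quinta 2, 3 and 4 and Montealto 1 being high for both and La Quinta 1 and Montealto 2, 3 and 4 low for both. No coefficient over the 8 bulls is read for that reason, and sets of 4 are too small for one within a set. The high set held 3 bulls of La Quinta and 1 of Montealto. In Wagyu the same pair had Pearson's r = 0.79 and a Spearman coefficient of 0.81, with p of 0.0192 and 0.0218 and adjusted p of 0.163 and 0.223 in exact permutation tests, and r = 0.86 without the 2 bulls farthest from the THBD median. Without Wagyu 3 and 4 its r was 0.47, with an adjusted p of 0.772 in the exact permutation test over 6 bulls.

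For VWF and PROS1 in Wagyu, r was 0.96 and the Spearman coefficient 0.74, with p of 0.00156 and 0.0458 and adjusted p of 0.0438 and 0.293 in exact permutation tests. Without the 2 bulls farthest from the VWF median r was 0.85. Wagyu 3 and 4 stood apart with the highest values of both genes. In the other 6 Wagyu bulls r was 0.78, with p of 0.0931 and adjusted p of 0.474 in the exact permutation test. The call was also lost without Wagyu 5, with r at 0.96 and adjusted p at 0.0833 in the exact permutation test over 7 bulls. In Lidia the bulls with the highest VWF, Montealto 2 and La Quinta 1, were both in the low set for PROS1. Whether the breeds differ in these relations was not tested.

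**Figure D4:**
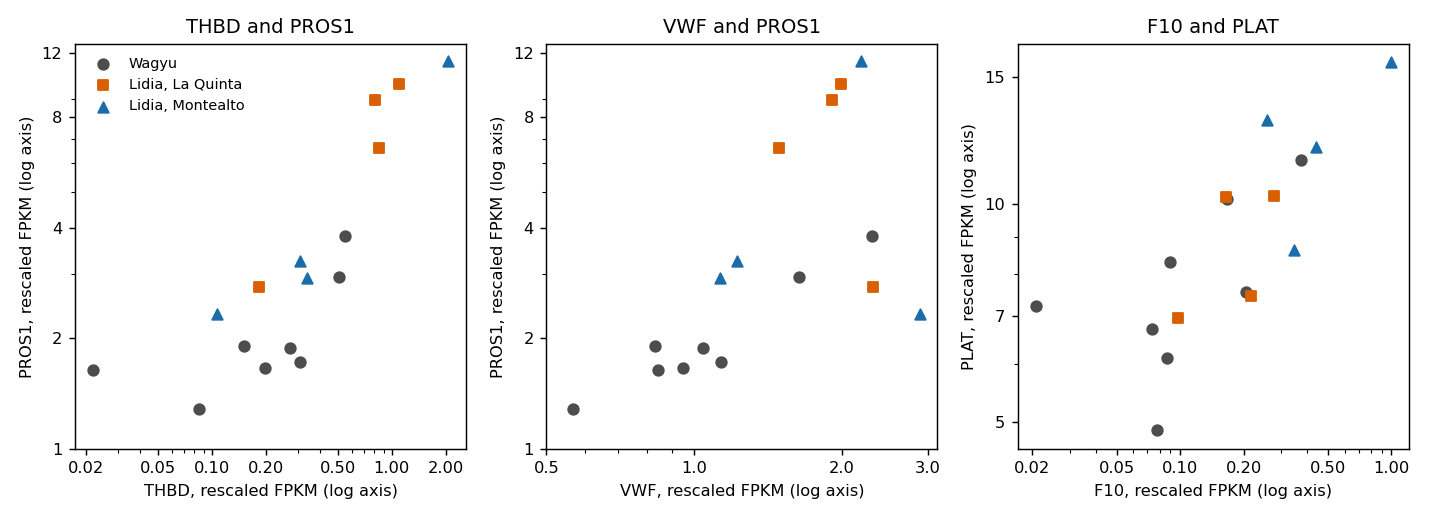
Rescaled FPKM of THBD and PROS1, VWF and PROS1, and F10 and PLAT in each of 16 bulls (both axes logarithmic; circles Wagyu, squares La Quinta, triangles Montealto). In the first panel 4 Lidia bulls stand above 6 FPKM of PROS1 and 4 below 4; in the second, Montealto 2 and La Quinta 1 have high VWF and low PROS1.

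F10 and PLAT had r of 0.77 in Lidia and 0.68 in Wagyu, and Spearman coefficients of 0.71 in each. Neither passed after adjustment in the exact permutation test (p = 0.0205 and 0.0669, adjusted p = 0.163 and 0.288 for r, and p = 0.0576 and adjusted p = 0.293 for the Spearman coefficient in each breed). Without the 2 bulls farthest from the F10 median r fell to 0.27 and 0.45, and as deviations from the farm means it was 0.58 in Lidia. PLAU and THBD in Wagyu came nearest to a call, with r = 0.89 and a Spearman coefficient of 0.90, p of 0.00295 and 0.00456 and adjusted p of 0.0551 and 0.0852 in exact permutation tests, and r = 0.74 without the 2 bulls farthest from the PLAU median. VWF and TFPI2 in Lidia had r = 0.77 and a Spearman coefficient of 0.79, with p of 0.0296 and 0.0279 and adjusted p of 0.166 and 0.223 in exact permutation tests, and r = 0.46 without the 2 bulls farthest from the VWF median.

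Summed markers of cell types were set beside the 8 genes as a description. Of 9 lists, 7 had at least 3 markers with a name here, and no named marker of these was at 0 in any animal. The named markers all come from the study's list, so nothing is read from breed differences in the sums below. All points of a breed share the libraries, their depth and their rescaling, and each r is over 8 bulls. PROS1 followed the meningeal fibroblast markers most closely. The 4 Lidia bulls that were high for PROS1 had marker sums of 101 (La Quinta 2), 125 (La Quinta 4), 139 (La Quinta 3) and 186 (Montealto 1) FPKM, in the order of their PROS1, and the other 4 had 31.2 to 45.5. In Wagyu, bulls 3 and 4 had sums of 57.0 and 51.2, and the other 6 had 9.16 to 17.6, among which r with PROS1 was 0.50. THBD showed the same split in Lidia, and among those 6 Wagyu bulls r was 0.72.

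**Figure D5:**
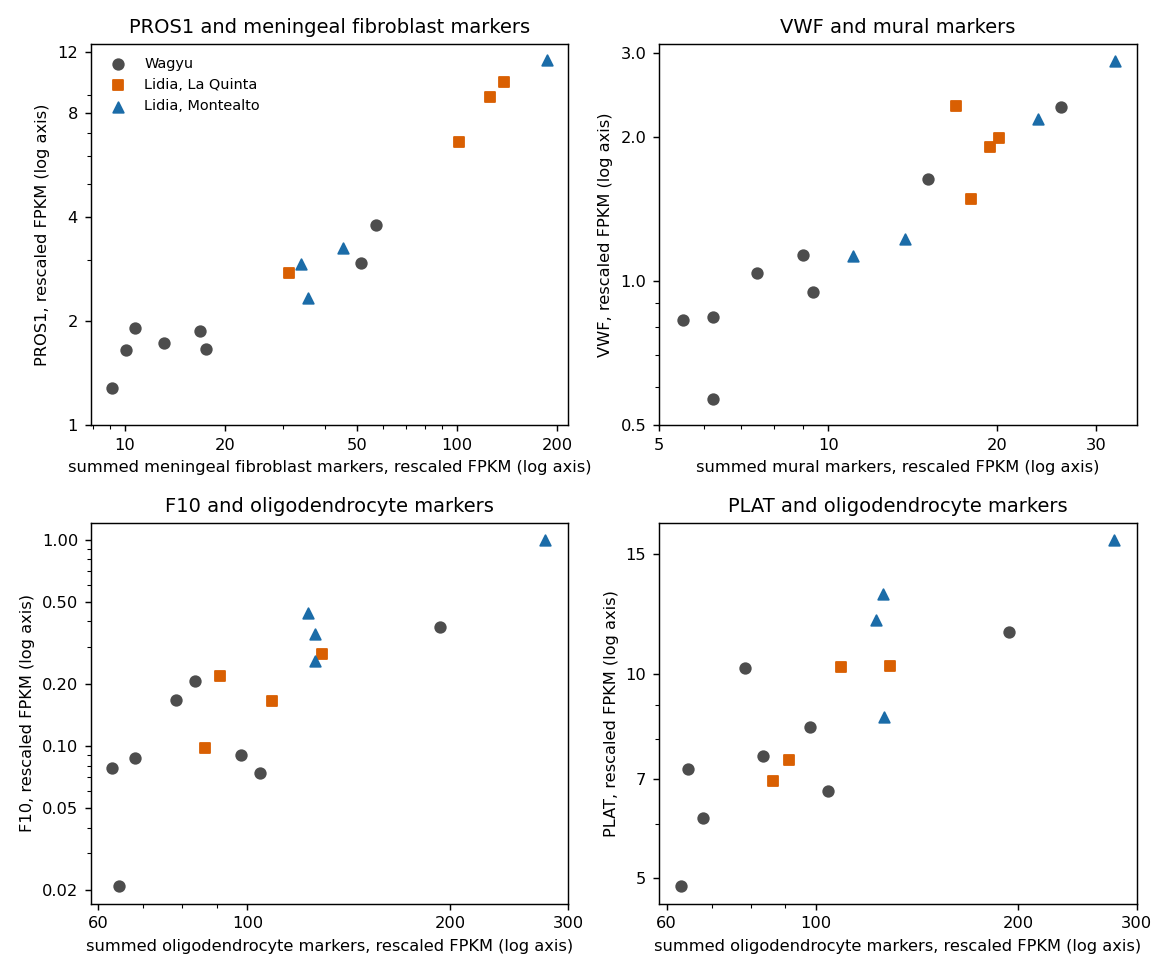
Rescaled FPKM of PROS1, VWF, F10 and PLAT (vertical axes) against summed rescaled FPKM of cell type markers (horizontal axes; all axes logarithmic) in 16 bulls; circles Wagyu, squares La Quinta, triangles Montealto. For PROS1 the 4 high Lidia bulls lie beyond a marker sum of 100, and for F10 and PLAT Montealto 2 has the highest marker sum, 277.

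VWF followed the 3 named mural markers, with r of 0.89 in Lidia and 0.93 in Wagyu, and the 7 endothelial markers, with 0.71 and 0.95. In Wagyu the r of VWF was also 0.93 with the fibroblast markers and 0.84 with those of microglia and macrophages, against 0.12 and 0.49 in Lidia. PROS1 likewise had 0.90 with the endothelial and 0.89 with the mural markers in Wagyu, but -0.41 and 0.21 in Lidia. Wagyu 3 and 4 had the highest PROS1 of their breed and its highest endothelial and mural sums. How far these bulls carry the Wagyu coefficients of PROS1 is not given here. The PROS1 coefficients are therefore not read as a relation in Wagyu that Lidia lacks. THBD had 0.77 with the endothelial markers in Wagyu and -0.53 in Lidia, where Montealto 2 stood apart with an endothelial sum of 127 FPKM. Wagyu 3 and 4 also had the highest THBD of their breed, at 0.552 and 0.507 FPKM. Their part in its Wagyu coefficient was not tested. Without Wagyu 3 and 4 the r of VWF with mural and endothelial markers were 0.64 and 0.77 in Wagyu, and without Montealto 2 they were 0.83 and 0.77 in Lidia. The mural markers summed to 11.1 to 32.4 FPKM in Lidia and 5.52 to 26.0 in Wagyu, MYL9 making up 74.1% of the sum. F10 and PLAT followed the 5 oligodendrocyte markers, F10 with r of 0.92 in Lidia and 0.74 in Wagyu and PLAT with 0.83 and 0.71. Montealto 2 stood apart with an oligodendrocyte sum of 277 FPKM, and without it the r in Lidia were 0.78 and 0.80. In Wagyu, bull 1 stood apart with a sum of 193 FPKM, against 104 in the next bull. Wagyu 1 also had the highest F10 and PLAT of its breed, at 0.374 and 11.5 FPKM. How far it carries the Wagyu coefficients was not tested. On the FPKM as deposited the r of F10 with these markers was 0.66 in Lidia and 0.12 in Wagyu. The oligodendrocyte sums ran from 86.4 to 277 FPKM in Lidia and from 63.0 to 193 in Wagyu. Other lists were also close in Lidia. With the microglia and macrophage markers F10 had r of 0.74 in Lidia and 0.33 in Wagyu, and PLAT 0.79 and 0.24. With the endothelial markers F10 had 0.71 and 0.33, and PLAT 0.62 and 0.53.

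For F3, r with the fibroblast markers in Wagyu was 0.50, and 0.15 without Wagyu 3 and 4. In Lidia the 3 highest F3 values, of Montealto 1 and La Quinta 4 and 3, were in bulls of the high fibroblast set. TFPI2 had 0.61 and 0.52 with the 5 astrocyte markers and 0.78 and 0.52 with the mural markers, and in Wagyu both turned negative without Wagyu 3 and 4, at -0.16 and -0.39. For PLAU the lower of the coefficients in the breeds was at most 0.25 for every list. With the 5 microglia and macrophage markers its r was -0.22 in Lidia, 0.61 without Montealto 2, and 0.67 in Wagyu, 0.39 without Wagyu 3 and 4. The summed astrocyte markers were at 293 to 448 FPKM in Lidia and 167 to 456 in Wagyu, and those of microglia and macrophages at 15.1 to 27.8 and 7.65 to 17.4. HBB, a haemoglobin chain and the sole blood cell marker with a name, was at 0.333 to 4.93 FPKM in Lidia and 0 to 1.84 in Wagyu. The part of these markers in the differences between the breeds was not tested.

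The genes most like each of the 8 were sought among the 1158 tested genes with a symbol, which all come from the study's own list, by the lower of the Pearson's r in Lidia and in Wagyu, over 8 bulls each. For PROS1 these were COL1A2, a collagen I chain, at 0.97, SEMA3B at 0.97 and COL6A1 at 0.96, and for THBD they were CEMIP at 0.95, CD14 at 0.95 and B4GALT1 at 0.94. In both cases the coefficients carry the split of the Lidia bulls and the high values of Wagyu 3 and 4 described above. VWF was closest to MYL9, a myosin light chain of smooth muscle, at 0.90, then to COL18A1 and ISYNA1, each at 0.88. F10 was closest to SOX10, a transcription factor of the oligodendrocyte lineage, at 0.90, then to CDC42EP2 at 0.88 and CARHSP1 at 0.86. PLAT was closest to ASPA, the aspartoacylase of oligodendrocytes, at 0.87, then to JUP and TOB2, each at 0.86. These coefficients also include extreme bulls. Wagyu 3 and 4 had the highest Wagyu values of VWF, and Wagyu 1 had those of F10 and PLAT. Montealto 2 had the highest Lidia value of VWF, F10 and PLAT. How far these bulls carry the coefficients was not tested.

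The remaining 3 genes had weaker counterparts. PLAU was closest to FCGR2B, an Fc receptor of immune cells, at 0.79, then to MR1 and to CX3CR1, the fractalkine receptor of microglia, each at 0.76. F3 was closest to HYAL1, a hyaluronidase, at 0.86, then to TWIST1, a mesenchymal transcription factor, at 0.77 and SERPINH1, the collagen chaperone, at 0.75. TFPI2 was closest to RHOJ at 0.86, then to OLFML1 at 0.85 and ARSE at 0.72. CD14 comes from the study's list of genes lower in Lidia, and the other 23 from the list of genes higher in Lidia. CD14, COL1A2, CX3CR1, MYL9, SOX10 and TWIST1 are also members of the marker lists above. Their coefficients are therefore not independent of the marker sums. Every coefficient with a most alike gene was picked as among the highest of 1158 candidates, so its size in part reflects the search. How high such values run without a relation was not tested.

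Of a list of 58 genes of coagulation, fibrinolysis and platelet adhesion, 13 have a name here, the 8 above and 5 more, and 45 could not be paired. Of the 5, limma called 3 higher in Lidia and 0 lower, where 3.33% of all genes were called higher. These 5 too come from the study's list, so the count is a description and nothing is read from it. SERPING1, the C1 inhibitor that also restrains factor XII and kallikrein, was at 5.84 to 19.1 FPKM in Lidia and 2.63 to 9.88 in Wagyu, a log2 difference of 1.27 (SE 0.29). ANXA2, a cell surface receptor that brings PLAT and plasminogen together, was at 5.49 to 23.8 and 3.43 to 11.1 FPKM, a log2 difference of 1.10 (SE 0.30). ITGB3, the integrin chain of the platelet fibrinogen receptor, was at 0.718 to 1.26 and 0.432 to 1.23 FPKM, a log2 difference of 0.64 (SE 0.17).

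The 2 others are receptors cut by coagulation proteases. F2R, the thrombin receptor, had a log2 difference of -0.58 (SE 0.18), with 0.936 to 2.75 FPKM in Lidia and 2.04 to 3.74 in Wagyu, and it was the sole gene of the 13 with a lower mean in Lidia. F2RL1, which trypsin-like proteases and the complex of tissue factor with factor VII can cut, had 0.73 (SE 0.22), with 0.777 to 2.80 and 0.624 to 1.67 FPKM. Neither was called. Between La Quinta and Montealto limma called 0 of these 5 genes, where 0.0905% of all genes were called, so that 0 of 5 tells little. At an unadjusted p under 0.05 in limma there were 0 of the 5 and 977 of all 16577 genes. The adjusted p of the 5 in limma lay between 0.844 and 0.943.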

How the data were processed

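RNA-seq of the PFC of 16 bulls was analysed. Reads had been trimmed (PRINSEQ) and aligned by the authors to ARS-UCD 1.2 with STAR 2.7.3a, and abundance came from Cufflinks 2.2.1 on the Ensembl annotation. The deposited values are, for each transcript and animal, other attributes of a GTF record: FPKM, its interval and coverage, scaled within an animal to its mapped fragments and not between animals. Their Cuffdiff test came later and is not part of these values. Animals were grouped by breed from the series record and by farm from the study's supplementary list of animals.

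FPKM was summed over the transcripts of a gene and divided by the animal's median ratio to the geometric mean over 15998 genes above 0 in all 16 animals. A filter at a mean FPKM of 0.1 left 16577 genes. Their log2(FPKM + 0.1) entered limma 3.58.1 (R 4.3.3, lmFit and trended eBayes, two-sided tests adjusted by Benjamini-Hochberg), with breed or with the 3 farms as groups and no covariates. Fragments were estimated from coverage at 200 bases each. No counts were given, so precision rests on the spread between animals. Pearson's and Spearman's coefficients were tested by exact two-sided permutation with Python 3.11.15, numpy 2.4.6, scipy 1.17.1 and pandas 2.3.3; correlations with markers were not tested. The scripts were tested on simulated data.

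The genes and lists were chosen with earlier results of these data known. Symbols exist here for the entries of the study's gene list alone (1163 of 1197 paired). Named were the 8 genes, the other named genes of the coagulation list, markers beside a result, and the 3 genes most like each of the 8. The alternatives were the FPKM as deposited, upper-quartile rescaling, 1 or 0.01 as the pseudocount, a filter at a mean FPKM of 1 or none, no variance trend, array weights, the Lidia bulls alone, and leaving out each animal.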

Additional observations from a re-analysis of the deposited data

Results flagged for a closer look

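In each of the 8 genes and each of 4 groups (Lidia, Wagyu, La Quinta and Montealto), 32 groups in all, the gap between an extreme animal and its neighbour was compared with Dixon's limit at 95%, which chance exceeds in about 1 of 20 groups, and 1 group exceeded it. F3 in Montealto 1 was at 15.2 FPKM, and the gap to the next of the 4 Montealto bulls was 0.93 of the group's range on the log2 scale, above the limit for 4 animals. The same bull was the highest of all 16 for THBD, PROS1, TFPI2 and PLAU. Without it F3 was still called between the breeds, and PROS1 and TFPI2 were not.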

How the results depend on the processing

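The direction of every one of the 8 breed differences was the same under all alternatives tried, and the number called was not: 3 became 0 on the FPKM as deposited, 7 with array weights (all but VWF), 1 without both inflated animals (F3), and 1 to 5 when an animal was left out. It was 1 without Montealto 1, La Quinta 3 or Wagyu 9 (F3), 1 without Wagyu 12 (TFPI2) and 5 without Wagyu 3, when VWF and PLAU were added. F3 was thus called without any single animal but Wagyu 12. For array weights and for animals left out, the share of all genes called between the breeds is not given here. A general change in calls therefore cannot be told from one in these genes, and nothing is read from the counts. Between the farms 0 of the 8 were called under all 18 alternatives, and the adjusted p of F10 ran over the 17 that tested it from 0.522 to 0.955. The number of all genes called there, 15, became 6 as deposited, 8 at a mean FPKM of at least 1, 54 with array weights, 8 without both inflated animals (an alternative added after seeing the data), 7 with the Lidia bulls alone, and 6 to 13 when a Lidia bull was left out, 6 without La Quinta 1 and 7 without La Quinta 2 or 4. The pairs called within Lidia went from 1 to 4 as deposited and 0 as deviations from the farm means, and those within Wagyu from 1 to 8 as deposited and 0 without Wagyu 5; the cause was not tested. On these deviations the r of THBD with PROS1 in Lidia was 0.97, against 0.96 on the values themselves. Each farm held high and low bulls, so both coefficients carry the split and neither is read as a relation within a set. On the deviations the adjusted p was 0.108 in an exact permutation test that exchanged bulls within farms only. Leaving out Wagyu 3 and 4 together, added after seeing the data, ended the call of VWF with PROS1 and gave F10 with PLAU in its place (r = -0.78 over 6 bulls, adjusted p = 0.0389 in the exact permutation test), and turned the r of TFPI2 with astrocyte markers to -0.16. No paired analysis was possible because the Lidia and Wagyu bulls came from different farms and no matching between them was described. Depth limits F10, THBD and TFPI2 most, with median estimates by breed of 7.47 to 38.5 fragments.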
